A study of Mus musculus with 12 samples.

Results

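The genes described here are the TGF-beta ligands Tgfb1, Tgfb2 and Tgfb3, the receptors Tgfbr1, Tgfbr2 and Tgfbr3, the signal transducers Smad2 and Smad3, the inhibitory Smad7, and Ltbp1, a protein that binds latent TGF-beta. They were looked up by symbol among probe sets that carry a single gene symbol, and each was read from its probe set with the highest mean over all arrays. All 10 were found, of 18193 genes with such a probe set, and all 10 were bright enough to be among the 12760 genes tested. The 10 genes have 25 probe sets in all, of which 18 passed the filter on dim signal.

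TGF-beta is made as a latent complex in which the ligand stays wrapped in its own propeptide, and latent TGF-beta binding proteins such as Ltbp1 anchor that complex in the matrix. Once freed, the ligand binds the type II receptor Tgfbr2, which phosphorylates the type I receptor Tgfbr1, while Tgfbr3 (betaglycan) is a co-receptor that presents ligand. Tgfbr1 phosphorylates Smad2 and Smad3, which enter the nucleus with Smad4, and Smad7 is an inhibitory Smad that is itself a target of the pathway. In the liver the pathway restrains T cells and drives matrix production by stellate cells.

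The series measured liver RNA of 12 BALB/c mice on 12 arrays, 1 per mouse, in a model of acute autoimmune hepatitis that arises in mice without TGF-beta1. TGFB KO livers came, by their labels, from mice lacking Tgfb1, and wild type livers from Balb/c mice with both genes intact. IFNko TGFB1 KO livers are labelled as from mice lacking both Tgfb1 and Ifng, the gene of interferon-gamma, and INFko TGFB+ livers (spelled as in the labels) as from mice lacking Ifng with Tgfb1 kept. Each group has 3 mice. The controls are described as TGF-beta1 +/+ littermates, but the labels of INFko TGFB+ say only TGFB+, and the sources used here give neither the ages nor which part of Tgfb1 and Ifng was disrupted, or in which cells.

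The deposited signals are linear, and each array had a trimmed mean of 150. On 11 arrays the median signal lay between 33.8 and 42.6 and the rank correlation between arrays between 0.816 and 0.912. The array labelled IFNko TGFB1 KO 1 was unlike the rest: its median was 61.29, with rank correlations of 0.7542 to 0.8088 with the others. For TGF-beta genes called in comparisons with that group, the change is also given without it. Not all changes that were not called are given without it. Hepatocyte markers were bright in all groups, with a summed signal over 11 markers of 127157 to 156534 in TGFB KO, 182605 to 184076 in wild type, 87526 to 151503 in IFNko TGFB1 KO and 162913 to 195686 in INFko TGFB+ livers. The Ifng probe set read 85.9, 94.3 and 201.6 in TGFB KO livers, against 23.3, 25.9 and 5.95 in wild type livers. It read 83.9, 54.3 and 44.6 on the arrays labelled IFNko TGFB1 KO, against 7.56, 1.06 and 7.45 in INFko TGFB+ livers. The signal on the arrays labelled IFNko TGFB1 KO was thus above every INFko TGFB+ and every wild type value, and since the place of the probes relative to the disrupted part is not known, it checks that label neither way.

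Tgfb1 itself was lower wherever it was labelled as lost. Its signal was 71.2, 87.6 and 45.5 in TGFB KO livers, against 390.9, 455 and 110 in wild type livers. It was 24.9, 52.1 and 43.8 in IFNko TGFB1 KO livers, against 220.9, 163.5 and 180.2 in INFko TGFB+ livers. Neither pair of groups overlapped, although the lowest wild type liver, number 3, lay closest to the TGFB KO livers. After quantile normalization of log2(signal + 16), a scale on which changes of dim genes are understated, the change was -1.82 ± 0.44 (log2, SE) in TGFB KO against wild type livers (limma, Benjamini-Hochberg adjusted p = 0.0105) and -2.04 ± 0.44 in IFNko TGFB1 KO against INFko TGFB+ livers (adjusted p = 0.00557), that is 3.54-fold and 4.11-fold lower. Without IFNko TGFB1 KO 1 the change against INFko TGFB+ livers was -1.75 (adjusted p = 0.0184). The change did not differ detectably between the backgrounds, with a difference of -0.21 and a 95% interval of -1.57 to 1.15. Liver RNA is a mix of cell types, so fewer cells of a type and less RNA per cell cannot be told apart here or below.

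A second, dimmer Tgfb1 probe set did not follow the first. It read 45.6, 49.4 and 35.2 in TGFB KO livers, against 27.8, 55.7 and 41.8 in wild type livers, and the groups overlapped. Its changes were 0.13 (limma adjusted p = 0.818 over 22941 probe sets) and 0.07 (adjusted p = 0.905) in the 2 comparisons. Averaging both Tgfb1 probe sets gave -0.85 (adjusted p = 0.028) and -0.99 (adjusted p = 0.0127). The sources used here do not place either probe set on the gene, and the residual signal of the first does not show whether a transcript remained. Tgfb1 also varied more among livers of a group than most genes, with a pooled SD of 0.61 on the log2 scale, at the 91st percentile of the genes tested, whose median was 0.32.

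**Figure D1:**
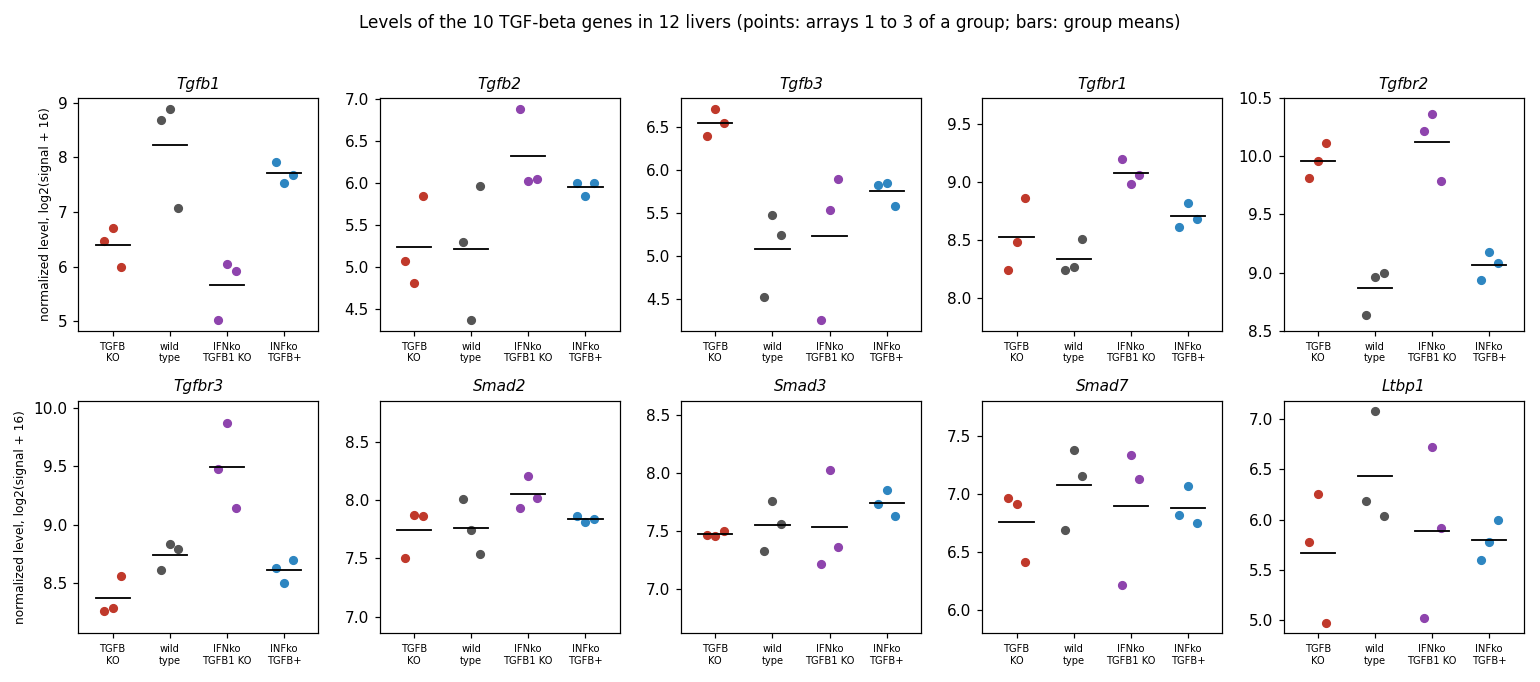
Normalized levels, log2(signal + 16) on the y axis, of the 10 genes in 12 livers, with 1 point per array and a bar at each group's mean, in the order TGFB KO, wild type, IFNko TGFB1 KO and INFko TGFB+. Tgfbr2 is at 9.96 and 10.12 on average in the 2 groups without Tgfb1, against 8.86 in wild type and 9.06 in INFko TGFB+ livers, and Tgfbr3 is high in IFNko TGFB1 KO livers (9.50).

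Tgfb3, which encodes a ligand that acts through the same receptors, was higher in TGFB KO livers. It read 67.2, 88.2 and 75 in TGFB KO livers, against 7.83, 29.3 and 20.4 in wild type livers, so that the lowest TGFB KO liver was above the highest wild type liver. The change was 1.48 ± 0.37 (limma adjusted p = 0.0139), or 2.78-fold. The call rests in part on 1 array: without wild type 1, the dimmest, the change was 1.21 with an adjusted p of 0.0532, and it also missed the threshold with a pseudocount of 1 in place of 16 (2.18, adjusted p = 0.0741).

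Tgfb3 in IFNko TGFB1 KO livers read 8.49, 28.6 and 42.2, against 38.7, 37 and 28.4 in INFko TGFB+ livers, and these groups overlapped. The change there was -0.52 ± 0.37 (limma adjusted p = 0.335), with a 95% interval of -1.33 to 0.29. It ranged from -0.86 to -0.04 with 1 array left out at a time. The difference between the backgrounds was -2.0 ± 0.53 and did not pass (adjusted p = 0.132; unadjusted p = 0.00272). Set directly against TGFB KO livers, IFNko TGFB1 KO livers had a Tgfb3 level lower by 1.33 on the log2 scale, with no overlap of the groups but an adjusted p of 0.0645. That last value depended on single arrays of the group: it was -0.85 (adjusted p = 0.125) without IFNko TGFB1 KO 1 and -1.65 (adjusted p = 0.0288) without IFNko TGFB1 KO 3. Under the deposited scaling (-1.21, adjusted p = 0.042) or a pseudocount of 64 (-0.69, adjusted p = 0.0298) it was called.

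Tgfb2, the remaining ligand, was dim and passed in no comparison. Its signal was 17.4, 11.1 and 38.7 in TGFB KO livers, against 27.4, 4.4 and 43.4 in wild type livers, which overlapped fully (change 0.03, 95% interval -0.82 to 0.88). It was 127, 50.4 and 49.2 in IFNko TGFB1 KO livers, against 45.3, 37.1 and 43.9 in INFko TGFB+ livers, where the groups did not overlap but 1 array, the one that stood apart, gave most of the gap. The change was 0.37 ± 0.39 (limma adjusted p = 0.53), and 0.09 without that array. Against TGFB KO livers the level in IFNko TGFB1 KO livers was 1.09 ± 0.39 higher (adjusted p = 0.145), and 0.79 without that array. The remaining 3 probe sets of Tgfb2 were under the filter.

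Among the receptors, Tgfbr2, the ligand-binding type II receptor, was higher in both groups without Tgfb1. It read 886.4, 990.8 and 1089.6 in TGFB KO livers, against 376.8, 477 and 498.7 in wild type livers. It read 1006.1, 1210.8 and 879.4 in IFNko TGFB1 KO livers, against 476.4, 567.3 and 530.4 in INFko TGFB+ livers. In both pairs the lowest liver without Tgfb1 was well above the highest control liver. The changes were 1.10 ± 0.19 (limma adjusted p = 0.00157) and 1.06 ± 0.19 (adjusted p = 0.00207), or 2.14-fold and 2.08-fold, and the change against INFko TGFB+ livers was 1.02 (adjusted p = 0.00667) without IFNko TGFB1 KO 1. The difference between the backgrounds was -0.04, with a 95% interval of -0.61 to 0.53. In the order of group means the 2 groups without Tgfb1 overlapped each other and lay above the overlapping pair of control groups.

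The Tgfbr2 result rests on 1 probe set. A dimmer one read 42.2, 105.7 and 96.7 in TGFB KO livers, against 83.6, 56.1 and 41.3 in wild type livers, and 88.2, 73.6 and 88.1 in IFNko TGFB1 KO livers, against 55.1, 50.5 and 46.2 in INFko TGFB+ livers. Its changes, 0.29 (limma adjusted p = 0.54) and 0.31 (adjusted p = 0.485), were not called, although the IFNko TGFB1 KO values were all above those of INFko TGFB+ livers. The mean of all Tgfbr2 probe sets changed by 0.53 (adjusted p = 0.072) and 0.63 (adjusted p = 0.0345). With each array centred on its median in place of quantile normalization, the change in IFNko TGFB1 KO against INFko TGFB+ livers was 0.70 (adjusted p = 0.0641), beside a median over all genes of -0.15.

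The promoters of the type II and type I receptors are printed because these 2 receptors form the signalling complex and only the mRNA of Tgfbr2 was called. The sequences are from RefSeq on GRCm38.p6, 5′ to 3′ on the gene's strand, and cover 300 bases, 250 before the annotated start and 50 from it onward. The Tgfbr2 window is chr9:116175314-116175613 on the minus strand, and the Tgfbr1 window is chr4:47352972-47353271 on the plus strand. Capitals mark matches, on either strand, to 4 motifs. The GC box was searched as GGGCGG. The CCAAT box was searched under its own letters. For Smad proteins the core CAGAC of their element was used. For Ets factors CAGGAA was used, which is longer than their core GGAA, so cores with other bases before them are not marked.
Tgfbr2: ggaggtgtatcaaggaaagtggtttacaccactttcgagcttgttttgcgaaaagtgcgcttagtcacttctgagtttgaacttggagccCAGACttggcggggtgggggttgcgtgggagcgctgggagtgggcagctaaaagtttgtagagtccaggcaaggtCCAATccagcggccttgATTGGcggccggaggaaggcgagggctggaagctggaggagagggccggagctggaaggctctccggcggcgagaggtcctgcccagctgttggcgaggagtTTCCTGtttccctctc
Tgfbr1: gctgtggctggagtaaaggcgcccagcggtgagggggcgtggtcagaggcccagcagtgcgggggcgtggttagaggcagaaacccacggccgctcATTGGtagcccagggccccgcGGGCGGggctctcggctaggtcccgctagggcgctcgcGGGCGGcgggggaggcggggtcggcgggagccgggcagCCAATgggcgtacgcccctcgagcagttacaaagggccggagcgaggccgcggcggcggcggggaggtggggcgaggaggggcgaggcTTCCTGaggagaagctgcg
The Tgfbr2 window held CCAAT box matches whose first bases lie at -85 and -68 from the start, and 1 Smad core match at -160. It also held 1 CAGGAA match at 34 and 0 GC box matches. The Tgfbr1 window held GC box matches at -133 and -95, CCAAT box matches at -154 and -57, a CAGGAA match at 31 and 0 Smad core matches. None of the matches overlapped another. Of 32851 mouse promoters of the same length, 35.7% held the GC box, 37.4% the CCAAT box, 49.6% the Smad core and 30.6% CAGGAA. Each of these matches is thus common. The GC content was 59% for Tgfbr2 and 74.7% for Tgfbr1, against a median of 52.7% over all promoters. Of the 10 genes, 6 are in the promoter table used. No binding was measured, and the matches describe the sequence only.

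Tgfbr3, the betaglycan co-receptor, was higher where Tgfb1 and Ifng were both labelled as lost. It read 620.9, 903.8 and 551.7 in IFNko TGFB1 KO livers, against 375.8, 346.8 and 401 in INFko TGFB+ livers. In TGFB KO livers it read 294.7, 300.3 and 368.2, against 371.1, 434.8 and 426.9 in wild type livers. Every IFNko TGFB1 KO liver was thus above every other liver of the series, whereas every TGFB KO liver was below every wild type liver, the closest pair by a narrow margin.

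The change of Tgfbr3 was 0.89 ± 0.19 in IFNko TGFB1 KO against INFko TGFB+ livers (limma adjusted p = 0.00631), or 1.85-fold, and 0.90 (adjusted p = 0.0146) without IFNko TGFB1 KO 1. In TGFB KO against wild type livers it was -0.38 ± 0.19 (adjusted p = 0.181), with a 95% interval of -0.80 to 0.04. IFNko TGFB1 KO livers were 1.14 ± 0.19 above TGFB KO livers (adjusted p = 0.00636), or 2.20-fold, and 1.16 (adjusted p = 0.02) without IFNko TGFB1 KO 1. The test of the difference between the backgrounds gave 1.27 ± 0.27, or 2.41-fold, which missed the threshold (adjusted p = 0.0631, unadjusted p = 0.00066), and 1.29 (adjusted p = 0.105) without IFNko TGFB1 KO 1. Without IFNko TGFB1 KO 3, the lowest of its group, it was 1.45 with an adjusted p of 0.0238. Median centring ended both calls, at 0.59 (adjusted p = 0.14) against INFko TGFB+ and 0.83 (adjusted p = 0.109) against TGFB KO livers.

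The second Tgfbr3 probe set was dim and uneven. It read 163.8, 66.2 and 31.4 in IFNko TGFB1 KO livers, against 19.7, 56.5 and 42.2 in INFko TGFB+ livers, and 16.1, 32.8 and 32.6 in TGFB KO livers, against 95.6, 70.5 and 25.4 in wild type livers. Its changes were 0.59 (limma adjusted p = 0.417) and -0.80 (adjusted p = 0.277), with overlap in both pairs. The mean of both Tgfbr3 probe sets changed by 0.74 (adjusted p = 0.0662) in IFNko TGFB1 KO against INFko TGFB+ livers.

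**Figure D2:**
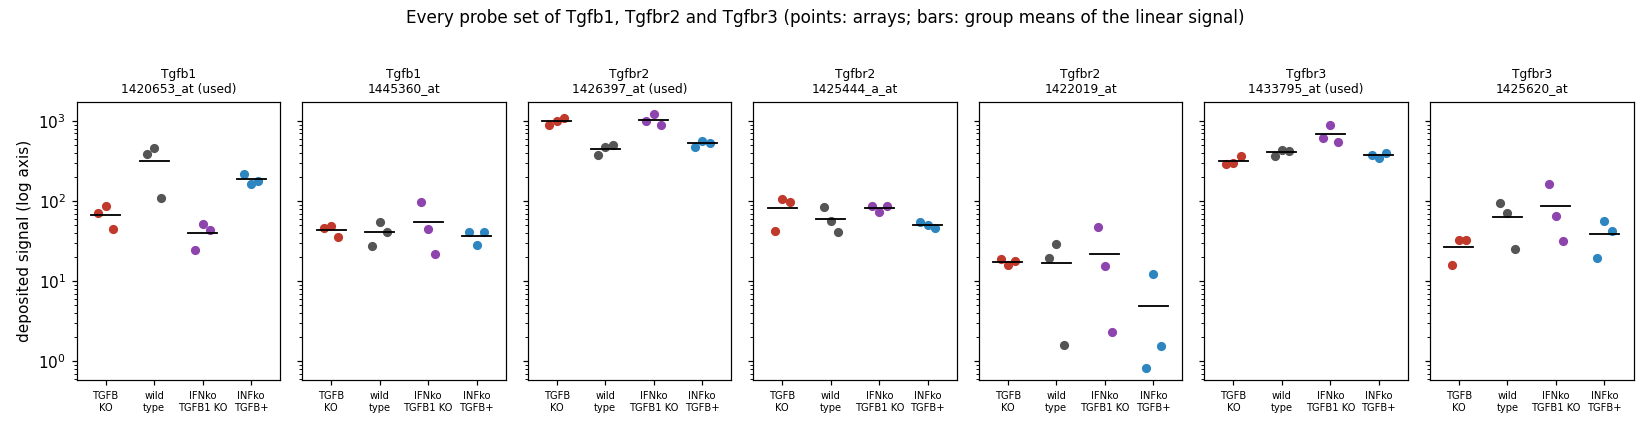
Deposited signal on a log axis for every probe set of Tgfb1, Tgfbr2 and Tgfbr3, with 1 point per array, bars at group means of the linear signal, and the probe set used for each gene named as such. The dimmer probe set of Tgfb1 stays between 22.2 and 97.9 over all arrays, and the groups of the dimmer Tgfbr3 probe set overlap in both pairs.

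Tgfbr1, the type I receptor kinase, passed in no comparison. It read 292, 349.7 and 456.4 in TGFB KO livers, against 280.7, 286.4 and 346.4 in wild type livers, with overlap (0.19, 95% interval -0.20 to 0.58). It read 514.4, 499.4 and 520.4 in IFNko TGFB1 KO livers, against 371.2, 437.8 and 394.9 in INFko TGFB+ livers. The IFNko TGFB1 KO livers were the highest of the series and overlapped no other group, but the change of 0.37 ± 0.18 did not pass (limma adjusted p = 0.158), nor did that of 0.55 ± 0.18 against TGFB KO livers (adjusted p = 0.114; 0.28 with median centring and 0.30 as the mean of its probe sets). The 95% interval against TGFB KO livers, 0.16 to 0.94, covers changes from slight to nearly as large as that of Tgfbr2 in the knockouts. Its other 2 probe sets, at 2.33 to 63 over the arrays, were not called. Of these, 1 read 25.5, 17.4 and 15.7 in INFko TGFB+ livers, against 55.3, 35 and 27.9 in wild type livers, without overlap. Its change there was -0.53 (limma adjusted p = 0.886), whereas that of the probe set used was 0.36. The mean of all Tgfbr1 probe sets changed by -0.11 in that comparison.

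The receptor-activated Smads, which carry the signal from Tgfbr1 to the nucleus, passed in no comparison. Smad2 read 169.9, 224.6 and 219.1 in TGFB KO livers, against 237.6, 189.5 and 161.7 in wild type livers, with full overlap and a change of -0.02 (95% interval -0.39 to 0.35). It read 232.6, 298.1 and 244.1 in IFNko TGFB1 KO livers, against 210.3, 202.4 and 204.7 in INFko TGFB+ livers. These groups did not overlap, yet the change was 0.22 (limma adjusted p = 0.394; 95% interval -0.15 to 0.59). A second Smad2 probe set read 59, 52.6 and 52 in TGFB KO livers, against 78.2, 103.9 and 72 in wild type livers, without overlap but not called (-0.51, adjusted p = 0.379), and its change against INFko TGFB+ livers was -0.74 (adjusted p = 0.183). Smad2 varied little among livers of a group, with a pooled SD of 0.17, at the 12.8th percentile of the genes tested.

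Smad3 read 165.6, 163 and 166.1 in TGFB KO livers, against 142, 193.4 and 164.3 in wild type livers, and 153.3, 262.8 and 149.8 in IFNko TGFB1 KO livers, against 190, 209.3 and 174.7 in INFko TGFB+ livers. All 4 groups overlapped their neighbours in the order of means. The changes were -0.07 (95% interval -0.53 to 0.39) and -0.21 (95% interval -0.67 to 0.25). For the probe sets used, a change of Smad2 or Smad3 as large as that of Tgfbr2 lies outside all of these intervals for the 2 comparisons of Tgfb1 loss. This does not cover the dimmer Smad2 probe set, whose change against INFko TGFB+ livers, -0.74 ± 0.36, was less precise. Nor does it cover the Smad3 probe sets not used. Of these, 1 under the filter read 6.06, 7.39 and 11.4 in TGFB KO livers, against 44.1, 54.5 and 16.2 in wild type livers, without overlap. Another changed by 0.11 and 0.08 in the comparisons of Tgfb1 loss. The mean of all Smad3 probe sets changed by -0.34 (limma adjusted p = 0.302) and -0.14 (adjusted p = 0.684).

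Smad7, the inhibitory Smad, read 108, 104.6 and 66 in TGFB KO livers, against 86, 141.6 and 118.2 in wild type livers. It read 85.4, 159.6 and 126.2 in IFNko TGFB1 KO livers, against 92.9, 113.6 and 86.5 in INFko TGFB+ livers. Both pairs overlapped, and the changes were -0.32 (95% interval -0.96 to 0.32) and 0.01 (95% interval -0.63 to 0.65), so a decline by close to 1 on the log2 scale in TGFB KO livers was within the error. With 1 array left out at a time, the change against INFko TGFB+ livers ranged from -0.20 to 0.36.

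Ltbp1, which tethers latent TGF-beta to the matrix, was dim and variable. It read 37.7, 56.6 and 14.1 in TGFB KO livers, against 59.2, 111.2 and 46.4 in wild type livers, and 24.7, 98.8 and 43.1 in IFNko TGFB1 KO livers, against 30.5, 34.5 and 44.2 in INFko TGFB+ livers. Both pairs overlapped. The changes were -0.77 (95% interval -1.73 to 0.19) and 0.09 (95% interval -0.87 to 1.05), and the pooled SD was 0.61, at the 91.1st percentile, the largest of the 10 genes together with Tgfb1. With 1 array left out at a time, the change against INFko TGFB+ livers ranged from -0.33 to 0.53.

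Counted over the 10 genes, TGFB KO against wild type livers gave 3 calls, Tgfb3 and Tgfbr2 higher and Tgfb1 lower, where 24.1% of all genes tested were called (12.2% higher and 11.9% lower). IFNko TGFB1 KO against INFko TGFB+ livers also gave 3, Tgfbr2 and Tgfbr3 higher and Tgfb1 lower, where 25.8% were called (12.7% higher and 13.1% lower). With Tgfb1 itself targeted, the share among the rest is close to these backgrounds in both comparisons. On the normalized scale the groups did not overlap for 4 of the 10 in the first comparison (40.3% of all genes, 18.4% higher and 21.9% lower) and 6 of 10 in the second (45.5%, 22.2% higher and 23.3% lower). The median change of the 10 was -0.05 and 0.15, beside -0.06 and -0.01 over all genes.

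The remaining comparisons gave fewer calls among these genes. The difference between the backgrounds gave 0 calls (0.87% of all genes were called, 0.243% upward and 0.627% downward), with 2 of the 10 at an unadjusted p under 0.05, Tgfb3 and Tgfbr3, beside 1510 of the 12760 genes. IFNko TGFB1 KO against TGFB KO livers gave 1 call, Tgfbr3 (5.36% of all genes, 2.54% higher and 2.82% lower), and no overlap for 5 of 10 (23.1%, 13.2% higher and 9.92% lower). INFko TGFB+ against wild type livers gave 0 calls by limma, as for all genes (0%), with 0 of the 10 at an unadjusted p under 0.05 and 650 of all genes. There the groups did not overlap on the normalized scale for 3 of the 10 (13.1% of all genes, 6.47% higher and 6.67% lower), Tgfb3 and Tgfbr1 with higher and Ltbp1 with lower values in INFko TGFB+ livers (the deposited Tgfb3 signals do overlap, at 28.4 in INFko TGFB+ 3 and 29.3 in wild type 2), at changes of 0.67, 0.36 and -0.64 (adjusted p = 0.91 each). For Tgfbr1 a dimmer probe set went the other way, with lower values in INFko TGFB+ livers and no overlap. Each group enters more than 1 of these comparisons, so the counts share arrays.

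**Figure D3:**
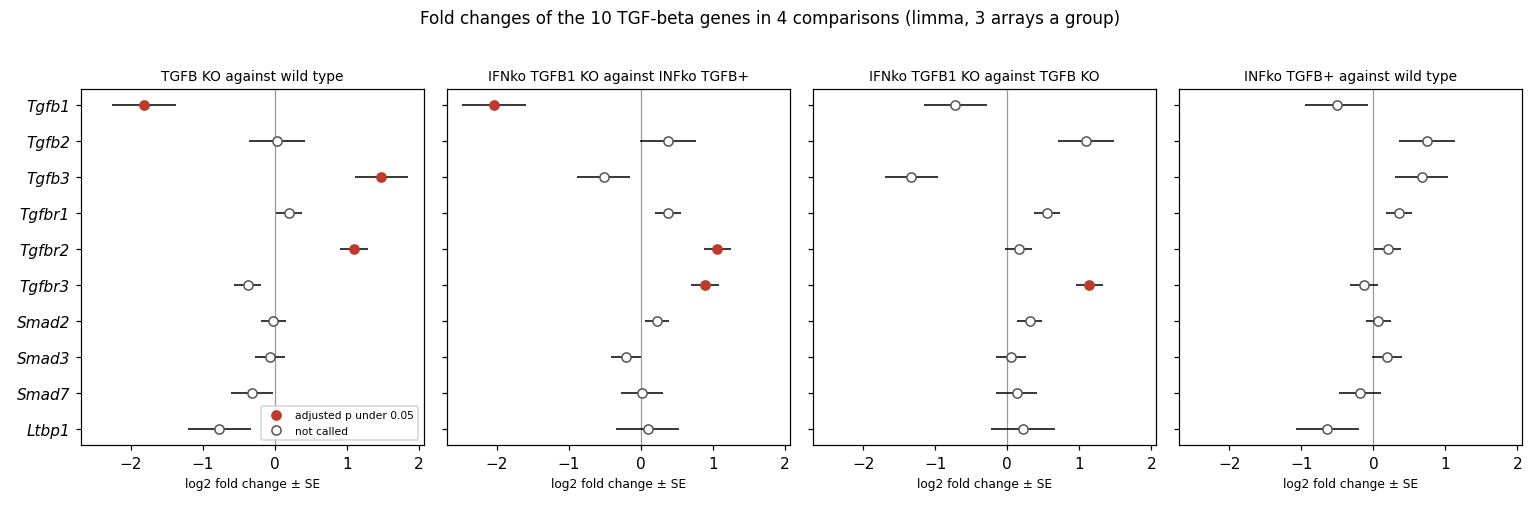
Log2 fold change with its SE (x axis) of the 10 genes (y axis) in 4 comparisons by limma, with filled points at an adjusted p under 0.05 and open points otherwise. Tgfb1 lies at -1.82 and -2.04 and Tgfbr2 at 1.10 and 1.06 in the comparisons of Tgfb1 loss, Tgfb3 is called in TGFB KO livers (1.48), and Tgfbr3 in IFNko TGFB1 KO livers (0.89 and 1.14).

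Cell type markers moved along with these changes. All 9 T cell markers with a probe set were higher in both comparisons of Tgfb1 loss, where 12.2% and 12.7% of all genes were called higher, with summed signals of 850 to 971 in TGFB KO livers, against 165 to 189 in wild type livers, and 2252 to 3551 in IFNko TGFB1 KO livers, against 124 to 212 in INFko TGFB+ livers. All 12 Kupffer cell and macrophage markers were also higher in both, at 48161 to 51899 in TGFB KO livers, against 8173 to 10376 in wild type livers, and 33940 to 47955 in IFNko TGFB1 KO livers, against 8175 to 8345 in INFko TGFB+ livers. Tgfbr2 was likewise higher in both comparisons. Set against TGFB KO livers, 6 of the 9 T cell markers were higher in IFNko TGFB1 KO livers, where 2.54% of all genes were called higher. None of the 12 Kupffer cell and macrophage markers was called there, nor was Tgfbr2 (0.16, limma adjusted p = 0.668). The part of these cells in the rise of Tgfbr2 was not tested.

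Stellate cell and fibroblast markers were divided as Tgfbr3 was. Of 12, 5 were lower in TGFB KO than in wild type livers and 0 higher, while 4 were higher and 0 lower in IFNko TGFB1 KO against INFko TGFB+ livers, 8 were higher in IFNko TGFB1 KO against TGFB KO livers, and 5 passed in the difference. Over all genes 11.9% were lower in the first of these, 12.7% higher in the second, 2.54% higher in the third, and 0.87% passed in the difference. Their summed signal was 8268 to 9251 in TGFB KO livers, against 13025 to 15734 in wild type livers, and 16585 to 20182 in IFNko TGFB1 KO livers, against 12560 to 12772 in INFko TGFB+ livers. None of the markers of these 3 lists was under the filter in this RNA. The part of these cells in the Tgfbr3 values was not tested.

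**Figure D4:**
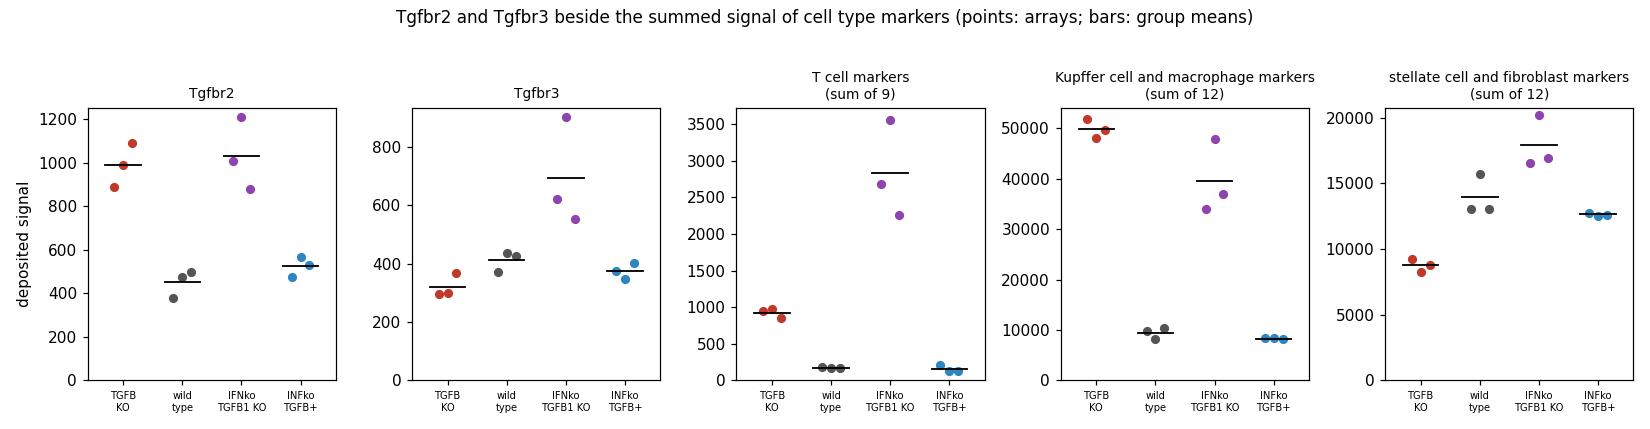
Deposited signal (y axes, linear, from 0) of Tgfbr2 and Tgfbr3 beside the summed signal of markers of T cells (9), Kupffer cells and macrophages (12) and stellate cells and fibroblasts (12), with 1 point per array and bars at group means. Tgfbr2 and the T cell and macrophage sums are high in both groups without Tgfb1, and Tgfbr3 and the stellate sum are highest in IFNko TGFB1 KO livers (551.7 to 903.8 and 16585 to 20182).

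The genes whose levels over the 12 arrays were most like those of the 4 called genes were found among 12203 genes, and the correlations are descriptions, since the group differences are in them. Nearest to Tgfbr2 were Lpxn, a focal adhesion protein of leukocytes (r = 0.984), Hif1a, the oxygen-regulated transcription factor (r = 0.982), and Cd82, a tetraspanin (r = 0.980). Lpxn had 115.3, 137.9 and 207.6 in TGFB KO livers, against 18, 30.7 and 28.7 in wild type livers, a division of the livers like that of Tgfbr2. Nearest to Tgfbr3 were Postn, which encodes the matrix protein periostin (r = 0.943), Nhp2, a small nucleolar RNA-binding protein (r = 0.940), and Lum, the proteoglycan lumican (r = 0.938). Within groups, after the group means are removed, these correlations were 0.85 to 0.95 for Tgfbr2 and 0.78 to 0.88 for Tgfbr3. The genes were picked as the most correlated over the same arrays, which favours high values here too, so these are no separate support. Nearest to Tgfb1 were Timm29 (r = 0.962), Epha1 (r = 0.955) and Pex5 (r = 0.955), and nearest to Tgfb3 were Ly75 (r = 0.930), Jade2 (r = 0.926) and Scara5 (r = 0.908). All arrays share the scaling and normalization.

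The rest of the pathway was read from 5 lists of 104 genes, of which 99 had a probe set and 89 were tested. In the latent complex and its activation, 3 of 12 genes tested were higher and 2 lower in TGFB KO against wild type livers, where 12.2% of all genes were called higher and 11.9% lower, with a list median of 0.22 beside -0.06 over all genes. Tgm2, the transglutaminase that crosslinks latent TGF-beta to matrix, had 11116, 9209.9 and 9191.2 in TGFB KO livers, against 2914.3, 2277.8 and 1903.9 in wild type livers (2.14 ± 0.19, limma adjusted p = 1.49e-05). Nrros, which holds latent TGF-beta on macrophages, was higher by 1.55 ± 0.28 (adjusted p = 0.00211), while Ltbp4, a binding protein of elastic fibres (-1.83 ± 0.31, adjusted p = 0.00151), and Bmp1, a protease that cleaves Ltbp1 (-1.56 ± 0.26, adjusted p = 0.00135), were lower. In IFNko TGFB1 KO against INFko TGFB+ livers 3 were higher and 1 lower, where 12.7% of all genes were called higher and 13.1% lower. Nrros (1.47 ± 0.28), Emilin1, a matrix protein that limits TGF-beta processing (1.43 ± 0.24), and Tgm2 (1.31 ± 0.19) rose, and Bmp1 fell (-1.0, adjusted p = 0.0149). The Bmp1 call was lost without INFko TGFB+ 1 (adjusted p = 0.0551) or IFNko TGFB1 KO 1 (adjusted p = 0.0502). Against TGFB KO livers, Tgm2 was lower in IFNko TGFB1 KO livers (-1.03, adjusted p = 0.00878).

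Of 11 other receptors and co-receptors, 1 was higher and 2 lower in TGFB KO against wild type livers, near the share of 24.1% called over all genes. Acvrl1, the type I receptor known from endothelium, had 242.2, 124.3 and 115.9 in TGFB KO livers, against 18.1, 10.6 and 49.7 in wild type livers (2.11 ± 0.39, limma adjusted p = 0.00278), and the groups did not overlap. Its signal was 38.4, 34.5 and 14.3 in IFNko TGFB1 KO livers, which were lower than TGFB KO livers by 2.06 on the log2 scale (adjusted p = 0.0121, and 0.0575 without TGFB KO 1). Acvr2a, an activin type II receptor, was lower in both comparisons, at -1.02 ± 0.21 in TGFB KO against wild type livers (adjusted p = 0.00489) and -1.19 ± 0.21 in IFNko TGFB1 KO against INFko TGFB+ livers (adjusted p = 0.00209). Bambi, a decoy receptor without a kinase domain, had 196.6, 210.8 and 152.2 in IFNko TGFB1 KO livers, against 108.7, 120 and 100.6 in INFko TGFB+ livers (0.55, adjusted p = 0.0358), and Eng, the endothelial co-receptor endoglin, was higher by 0.48 (adjusted p = 0.0499), a call lost in 19 of 24 alternatives. Acvr1, a BMP type I receptor, was lower in both comparisons (-0.81, adjusted p = 0.0247, in TGFB KO against wild type livers, and -0.73, adjusted p = 0.0362, in IFNko TGFB1 KO against INFko TGFB+ livers). The call in TGFB KO livers was lost without wild type 2 or 3 or TGFB KO 1 or 3 (adjusted p = 0.0756 to 0.0927), and in the other comparison the mean of its probe sets changed by -0.27 (adjusted p = 0.321) and 5 of the arrays left out ended the call. In IFNko TGFB1 KO against INFko TGFB+ livers 2 were higher and 2 lower, where 12.7% of all genes were called higher and 13.1% lower. The count of 4 dropped to 1 without any 1 of the INFko TGFB+ livers or IFNko TGFB1 KO 2, and to 2 without IFNko TGFB1 KO 1, with Bambi lost in each of these.

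Of 25 other Smads and Smad regulators, 2 were higher and 4 lower in TGFB KO against wild type livers, and 0 higher and 2 lower in IFNko TGFB1 KO against INFko TGFB+ livers. Over all genes 24.1% and 25.8% were called, so the first count is near that share and the second below it. Smad6, the inhibitory Smad of the BMP branch, had 305.8, 241.7 and 354.3 in TGFB KO livers, against 171.5, 132.9 and 129.2 in wild type livers (0.88 ± 0.21, limma adjusted p = 0.0116). Ski, a co-repressor of Smad3, was lower (-0.93 ± 0.20, adjusted p = 0.00643), as was Usp4, a deubiquitinase of Tgfbr1 (-0.53, adjusted p = 0.016). The Usp4 call was lost without wild type 1 (adjusted p = 0.0532) or TGFB KO 2 (adjusted p = 0.063), and the mean of its probe sets changed by only -0.07 (adjusted p = 0.823). Ppm1a, a phosphatase of Smad2 and Smad3, was lower in TGFB KO against wild type livers (-0.58 ± 0.13, adjusted p = 0.00842) and in IFNko TGFB1 KO against INFko TGFB+ livers (-0.52 ± 0.13, adjusted p = 0.014). With median centring the call in TGFB KO livers was lost (-0.52, adjusted p = 0.165). Neither Ppm1a nor Smurf2, a ubiquitin ligase of the receptors (-0.78, adjusted p = 0.0293), was called in IFNko TGFB1 KO against INFko TGFB+ livers without INFko TGFB+ 1 or INFko TGFB+ 2, and Smurf2 also not without INFko TGFB+ 3 or IFNko TGFB1 KO 2.

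Among 26 tested genes known as targets of the pathway, 3 were called in TGFB KO and 10 in IFNko TGFB1 KO livers, against their controls. With 1 array left out at a time these counts ranged from 2 to 6 and from 7 to 12. Over the other settings they ranged from 3 to 7 and from 6 to 12. The difference between the counts was not tested. In TGFB KO against wild type livers 2 were higher and 1 lower (5 and 6 calls in all without IFNko TGFB1 KO 2 or IFNko TGFB1 KO 1), with a median of 0.32, where 12.2% of all genes were called higher and 11.9% lower. In IFNko TGFB1 KO against INFko TGFB+ livers 9 were higher and 1 lower, where 12.7% of all genes were called higher and 13.1% lower, with a median of 0.84 beside -0.01 over all genes. Postn had 5090, 8154 and 4279.6 in IFNko TGFB1 KO livers, against 1488.5, 1251.8 and 1497.8 in INFko TGFB+ livers (2.13 ± 0.23, limma adjusted p = 0.000112), and Tagln, a protein of contractile cells, was higher by 1.61 ± 0.28 (adjusted p = 0.00188). Id2, an inhibitor of basic helix-loop-helix factors, was higher in both comparisons, at 1.48 ± 0.27 (adjusted p = 0.00234) and 1.42 ± 0.27 (adjusted p = 0.00296). Tsc22d1, first described as stimulated by TGF-beta, was lower in both, with 3880.3, 3486 and 2813.2 in TGFB KO livers, against 12501.1, 10975 and 8786.4 in wild type livers (-1.60 ± 0.23, adjusted p = 0.00051), and -1.41 ± 0.23 in IFNko TGFB1 KO against INFko TGFB+ livers (adjusted p = 0.00131), a call lost with the mean of its probe sets (-0.49, adjusted p = 0.0614). Junb, an AP-1 subunit, was higher in TGFB KO against wild type livers (1.45, adjusted p = 0.0157), but not called without TGFB KO 1 (1.10, adjusted p = 0.0667). Against TGFB KO livers 4 targets were higher in IFNko TGFB1 KO livers and 0 lower, beside 2.54% higher and 2.82% lower over all genes. They were Postn (2.35, adjusted p = 0.00016), Tagln (1.63, adjusted p = 0.00655), the collagen gene Col3a1 (0.81, adjusted p = 0.0454) and Acta2, smooth muscle actin (1.38, adjusted p = 0.0498). The last 2 are fragile: Acta2 was lost in 20 and Col3a1 in 18 of 24 alternatives. Acta2 had 948, 2148 and 697.3 in IFNko TGFB1 KO livers, and its change was 0.91 (adjusted p = 0.0726) without IFNko TGFB1 KO 2 and 0.51 (adjusted p = 0.191) as the mean of its probe sets. Without IFNko TGFB1 KO 1, or any 1 of the TGFB KO livers, or wild type 2, INFko TGFB+ 2 or INFko TGFB+ 3, that count was 2, and without IFNko TGFB1 KO 3 it was 7. Postn, Tagln and the collagens among the targets are also made by fibroblasts, whose markers divided the livers as given above, and the part of those cells was not tested.

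Of 15 other ligands of the superfamily and their antagonists, 2 were higher and 5 lower in TGFB KO against wild type livers, and 3 higher and 5 lower in IFNko TGFB1 KO against INFko TGFB+ livers. Over all genes 24.1% and 25.8% were called, 11.9% and 13.1% lower. The hepatocyte activin subunits Inhbc and Inhbe were lower in both: Inhbc had 385, 581.8 and 339 in TGFB KO livers, against 2707.2, 2668.5 and 1709.9 in wild type livers (-2.36 ± 0.40, limma adjusted p = 0.00158), and -2.26 ± 0.40 in IFNko TGFB1 KO against INFko TGFB+ livers (adjusted p = 0.00217). Fst, which encodes the activin antagonist follistatin, was higher in both, with 112.4, 170.4 and 159.3 in TGFB KO livers, against 5.06, 24.6 and 28.8 in wild type livers (2.25 ± 0.34, adjusted p = 0.000691), and 319.1, 223.2 and 134.6 in IFNko TGFB1 KO livers, against 30.2, 24.8 and 29.1 in INFko TGFB+ livers (2.25 ± 0.34, adjusted p = 0.000845). Fstl3, a relative of follistatin, had 196.5, 153.3 and 185.1 in TGFB KO livers, against 7.58, 2.47 and 22.5 in wild type livers (2.90 ± 0.34, adjusted p = 0.000136). Its signal in IFNko TGFB1 KO livers was 22.7, 12.5 and 15.8, against 6.83, 2.45 and 29.4 in INFko TGFB+ livers, which overlapped. Dcn, a proteoglycan that binds TGF-beta and one of the fibroblast markers, was higher by 1.0 ± 0.14 in IFNko TGFB1 KO against INFko TGFB+ livers (adjusted p = 0.000593), and by 0.55 with median centring (adjusted p = 0.101). Against TGFB KO livers, IFNko TGFB1 KO livers had lower Fstl3 (-2.62, adjusted p = 0.00116) and higher Dcn (0.89, adjusted p = 0.00429), Gdf10, a BMP-related ligand (1.29, adjusted p = 0.00642), and Gdf2, the ligand BMP9 (0.89, adjusted p = 0.0328, lost in 11 of 24 alternatives). There were 5 calls in that comparison, where 5.36% of all genes were called, and 3 were left without IFNko TGFB1 KO 1, IFNko TGFB1 KO 2 or TGFB KO 1.

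**Figure D5:**
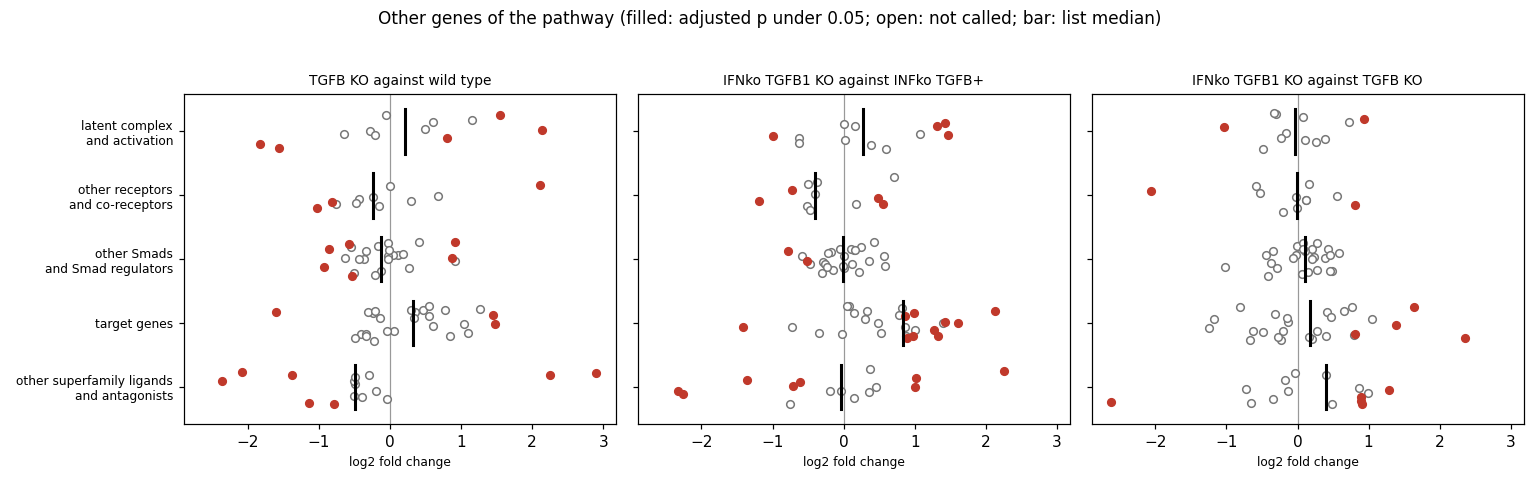
Log2 fold change (x axis) of each tested gene of the 5 pathway lists (y axis) in 3 comparisons, with filled points at an adjusted p under 0.05, open points otherwise, and a bar at each list's median. The target genes have a median of 0.84 in IFNko TGFB1 KO against INFko TGFB+ livers and 0.32 in TGFB KO against wild type livers, and the Smads and their regulators centre near 0 in all 3 (-0.13, -0.01 and 0.10).

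Without IFNko TGFB1 KO 1, 26 of the 35 named calls on other pathway genes in comparisons that include IFNko TGFB1 KO livers were kept and 9 were lost. Of the 53 named results on these genes in all, 27 were kept under every alternative setting tried and 19 were lost when some 1 array was left out.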

How the data were processed

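Per the labels' protocols, Trizol extracts of liver from 12 mice went through one-cycle biotin labelling, and each was hybridised to 1 array (45101 probe sets). The files hold, as deposited, 1 linear intensity per probe set, scaled by the authors to a trimmed mean of 150 as the values show; which algorithm and scaling target they used is not given in the sources used here. The number of arrays limits the precision. The label of INFko TGFB+ 1 lacks a replicate number, so it received the unused one.

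Of the probe sets, 34958 have a single symbol, 932 several and 9211 none; 34754 took their current RefSeq (GRCm38.p6) symbol by Entrez ID, and 64 control probe sets were left out. Signals were transformed as log2(signal + 16) and quantile normalized; probe sets under the 40th percentile of mean level (5.25) were dropped, and the brightest per gene was kept. Groups were fitted in R 4.3.3 with limma 3.58.1 (lmFit with a mean per group, eBayes, 8 residual and 3.44 prior degrees of freedom), with 5 contrasts, two-sided p-values, Benjamini-Hochberg adjustment over 12760 genes and a threshold of 0.05; the fit was tested on simulated data. The 10 members, 5 pathway lists and 11 cell type lists were chosen with earlier results of these data known. Named are all members, Ifng, up to 4 called genes per pathway list and contrast by smallest p, and the 3 genes most correlated with each called member. Alternatives covered scaling, pseudocount, filter, probe set choice, each probe set alone (added after seeing the data), array weights, eBayes settings, the groups in the fit, a replicate block and each array left out.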

Additional observations from a re-analysis of the deposited data

Results flagged for a closer look

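The level in livers without Tgfb1, set against its controls, was compared between the backgrounds labelled as with and without Ifng. Of the genes described here 8 were flagged, 5 by a difference that passed and 3 only by non-overlap in opposite directions. For 3 of them every liver of one knockout group lay above and every liver of the other below its controls, without the difference itself passing: Tgfbr3 differed by 1.27 (limma adjusted p = 0.0631), Bambi by 1.01 (adjusted p = 0.0917) and Col3a1 by 0.90 (adjusted p = 0.238). For 5 the difference passed, where it passed for 0.87% of all genes tested. These 8 genes come from the 10 members and the 89 pathway genes tested. The share of all genes that moved in opposite directions without overlap was not counted. The matricellular gene Postn differed by 2.34 (adjusted p = 0.00641), with changes of 2.13 in IFNko TGFB1 KO against INFko TGFB+ livers and -0.21 in TGFB KO against wild type livers. Tagln differed by 2.10 (adjusted p = 0.0321), Gdf10, a BMP-related ligand, by 1.53 (adjusted p = 0.0488) and Dcn by 1.2 (adjusted p = 0.0187), all upward. Fstl3 differed by -2.75 (adjusted p = 0.0241), with changes of 0.15 and 2.90. Postn kept its call under every alternative, whereas Tagln, Gdf10, Dcn and Fstl3 each lost theirs without 1 or another array.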

How the results depend on the processing

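The counts of called TGF-beta genes kept their main values under most alternatives, and no result changed direction past the threshold. In IFNko TGFB1 KO against INFko TGFB+ livers, median centring left 1 call, Tgfb1, of 3, beside 988 higher and 1864 lower among all genes, against 1618 and 1673 with quantile normalization (1448 and 893, against 1553 and 1524, in TGFB KO against wild type livers); it shifted the median of all genes to -0.15 there and to -0.25 in the difference. In IFNko TGFB1 KO against TGFB KO livers the 1 call became 2, with Tgfb3, under the deposited scaling and a pseudocount of 64, and 0 under median centring or a fit of only the 2 groups (Tgfbr3 1.14, adjusted p = 0.078). In the difference, 0 became 1, Tgfbr3, with a pseudocount of 64 (1.15, adjusted p = 0.0261), a filter at the 60th percentile (1.27, adjusted p = 0.0366) and eBayes with trend and robust (1.27, adjusted p = 0.0206). With 1 array left out at a time the counts were 2 to 3 in TGFB KO against wild type, 3 to 3 in IFNko TGFB1 KO against INFko TGFB+, 0 to 1 in the difference, 1 to 2 in IFNko TGFB1 KO against TGFB KO and 0 to 0 in INFko TGFB+ against wild type livers. The causes were not tested.

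Deviations of same-numbered arrays correlated at 0.10, 0.07 and 0.34 in TGFB KO against wild type livers, and at -0.08 to 0.11 in the other comparisons. Arrays with different numbers were not compared, so whether replicate numbers pair the samples was not tested. With the replicate number as a block the counts were 3, 3, 0, 2 and 0 in that order, the added call being Tgfb3 (-1.33, adjusted p = 0.0458). Dim members (Tgfb2, Tgfb3 and Ltbp1) and 3 arrays a group limit what could be called.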

Other observations

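Counts of called markers of the other cell type lists are given beside 24.1% of all genes called in TGFB KO against wild type livers and 25.8% in IFNko TGFB1 KO against INFko TGFB+ livers, and several lie at or below these shares. Of 9 neutrophil and monocyte markers, 6 were higher in TGFB KO against wild type livers and 6 in IFNko TGFB1 KO against INFko TGFB+ livers, with medians of 1.42 and 1.64. Of 12 liver endothelial markers, 4 were higher and 1 lower in TGFB KO against wild type livers, and 2 higher in IFNko TGFB1 KO against INFko TGFB+ livers. Of 11 hepatocyte markers, 1 was lower in the first comparison and 5 in the second. Of 7 B and plasma cell markers, 0 were called in the first and 1 was higher in the second. Of 6 megakaryocyte and platelet markers, which cells are a known store of TGF-beta1, 2 were higher in the first and 1 in the second. Their summed signals were 1741 to 3472 in TGFB KO livers, against 953 to 1743 in wild type livers, which overlapped. They were 2361 to 5698 in IFNko TGFB1 KO livers, against 1175 to 1405 in INFko TGFB+ livers, without overlap. Of 6 erythroid markers 1 was higher in the first and 0 in the second, of 4 cholangiocyte markers tested 0 were called in either, and of 3 markers of pancreas, intestine and adipose tissue tested 2 were lower in both.

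The pooled SD within groups separated the 10 TGF-beta genes: Tgfb1, Tgfb2, Tgfb3 and Ltbp1 had 0.61, 0.55, 0.51 and 0.61, at or above the 82.2nd percentile of the genes tested, while Tgfbr1, Tgfbr2, Tgfbr3, Smad2 and Smad3 had 0.19, 0.20, 0.22, 0.17 and 0.25, all below the median gene (0.32), and Smad7 had 0.39.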
